A study of Mus musculus with 4 samples.

Results

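Interferon-stimulated genes were followed in gastric RNA from mice on a C57BL/6 background at 12 weeks of age, in 2 WT and 2 *Atp4b-cre; MycOE* samples. They are 39 named genes induced by type I or type II interferon, and all 39 were found among the 46095 mouse gene symbols with counts. In *Atp4b-cre; MycOE* mice, labelled MYC-KI, parietal lineage cells express Cre from the *Atp4b* promoter, which turns on a human *c-Myc* transgene. The study took *Myc fl/fl* littermates as its controls and calls them WT. The methods state that both sexes were used, and no source used here says whether a sample was 1 stomach or a pool, so p-values measure the spread between these samples. Whole gastric RNA was sequenced, so fewer cells of a type and less RNA per cell cannot be told apart. Library totals ranged from 30260305 to 41463647 counts.

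Interferons are secreted proteins that warn cells of infection. Type I interferons (IFN-α and IFN-β) act through IFNAR and a complex holding STAT2 and IRF9, which binds the interferon-stimulated response element (ISRE). Type II interferon (IFN-γ) acts through IFNGR, and its signal is read at the gamma-activated site (GAS). The induced genes encode sensors of viral nucleic acid, proteins that degrade or trap viral RNA, the ubiquitin-like protein ISG15 with its enzymes, and GTPases that attack vacuoles holding pathogens. In the gastric mucosa, as in other epithelia, both epithelial cells and leukocytes can carry this response.

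The deposited table pairs names with counts differently in the 2 genotypes, so the transgenic counts were first moved, keeping their row order, onto the names in character-code order (capitals before lower case). Pearson's r between the genotypes, across genes, which are not independent replicates, was 0.524 in the table as deposited and 0.985 after the re-sorting. The members were affected by this step, because only *Dtx3l* stood at the same place in both orders, while 18 members moved by 1 row, 5 moved by 2 to 4 rows and 15 moved by 397 rows. Over the 61 rows around each member, r between the genotypes lay between 0.964 and 0.996 after the re-sorting. All values below come from the re-sorted counts, and every genotype difference rests on this assignment, whereas differences between replicates of 1 genotype keep the counts together and depend on it only for the gene's name. The mouse *Myc* row, which carries no separate row for the human transgene, had 31.6 and 27.2 normalized counts per 1000000 (CPM) in WT and 21.7 and 24.4 in transgenic samples, so the overexpression could not be checked from it.

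WT replicate 2 stood apart in the sex that its RNA marks. *Xist* had 639.7 normalized CPM in this sample and 2.53 to 4.50 in the other 3, and the Y-linked gene *Ddx3y* had 0.179 there and 55.5 to 58.7 in the others. Parietal cell markers were lower in the transgenic samples for 8 of 8 tested genes, with summed levels of 12674 and 12734 normalized CPM in WT and 508 and 526 in transgenic samples. Chief cell markers were lower for 3 of 4 tested genes. These counts and the next are of genes called lower in the test described below, against 5.08% of all genes. Markers of surface mucous and mucous neck cells of the stomach were lower for 4 of 6 tested genes, yet still summed to 30672 and 25860 normalized CPM in transgenic samples, against 54752 and 65755 in WT.

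The promoters of the members were searched for the letters of both elements. Promoter windows of RefSeq on GRCm38.p6, running from 250 bases before to 50 bases after the start of transcription, were matched for 29 of the 39 members. The ISRE core was searched as GAAA, then any 2 bases, then GAAA again, and the GAS palindrome as TTC, then any 3 bases, then GAA, on both strands, and overlapping matches were allowed, also between the motifs. The ISRE core was found in 17 of 29 member promoters (58.6%) and in 1079 of 27025 promoters of all genes (3.99%). A GAS palindrome was found in 9 of 29 (31.0%) and in 2582 of 27025 (9.55%). A match of letters describes the window and is not a binding site.

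The 5 stretches below, each 60 bases long, carry the ISRE core in 4 antiviral genes and in *Gbp2*, the member that passed the test between genotypes. Capitals mark ISRE cores, which read TTTC, 2 bases and TTTC where they lie on the other strand, and in *Bst2* also an overlapping GAS palindrome. They lie at chr4:156200856-156200915 on the minus strand (*Isg15*), chr19:34640769-34640828 on the plus strand (*Ifit1*), chr5:120777700-120777759 on the minus strand (*Oas3*), chr8:71537568-71537627 on the minus strand (*Bst2*) and chr3:142620579-142620638 on the plus strand (*Gbp2*), and each is written 5′ to 3′ along the strand of its gene.
Isg15: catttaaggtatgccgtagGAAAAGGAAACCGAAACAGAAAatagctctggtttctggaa
Ifit1: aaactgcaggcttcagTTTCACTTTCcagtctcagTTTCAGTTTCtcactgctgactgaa
Oas3: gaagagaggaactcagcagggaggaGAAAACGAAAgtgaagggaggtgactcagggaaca
Bst2: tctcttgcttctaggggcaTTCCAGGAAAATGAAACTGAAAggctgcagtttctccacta
Gbp2: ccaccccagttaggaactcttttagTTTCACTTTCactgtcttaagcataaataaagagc

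*Isg15* held 3 overlapping ISRE cores in this run, and *Ifit1*, which encodes a protein that binds foreign RNA ends, held 2 separate ones. Both motifs together were found in 6 of 29 member promoters (20.7%) and in 166 promoters of all genes (0.614%). The 3 immunity-related GTPase genes below shared an arrangement in which a GAS palindrome began 11 bases before an ISRE core. Among all 27025 genes with a promoter window 5 had this arrangement, the other 2 being *Tgtp2* and *Gm12185*, and the spacing was noticed after the sequences were seen. The 5 are not separate cases, since 79.4% of the 50-base windows of *Tgtp1* transcripts also occur in *Tgtp2*, and *Gm12185* overlaps *Tgtp1*. The stretches of *Igtp* and *Irgm2* below are nearly the same. The stretches lie at chr11:58199491-58199550 on the plus strand (*Igtp*), chr11:58214882-58214941 on the plus strand (*Irgm2*) and chr11:48992295-48992354 on the minus strand (*Tgtp1*), and *Irf1* is shown beside them, at chr11:53769898-53769957 on the plus strand, as a member with a GAS palindrome and no ISRE core. Capitals mark the GAS palindrome and the ISRE core.
Igtp: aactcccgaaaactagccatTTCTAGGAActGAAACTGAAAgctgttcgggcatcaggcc
Irgm2: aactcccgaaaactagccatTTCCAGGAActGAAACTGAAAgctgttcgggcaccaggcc
Tgtp1: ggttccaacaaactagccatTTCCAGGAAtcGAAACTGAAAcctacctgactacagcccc
Irf1: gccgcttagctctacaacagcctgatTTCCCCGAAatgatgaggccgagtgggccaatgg

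**Figure D1:**
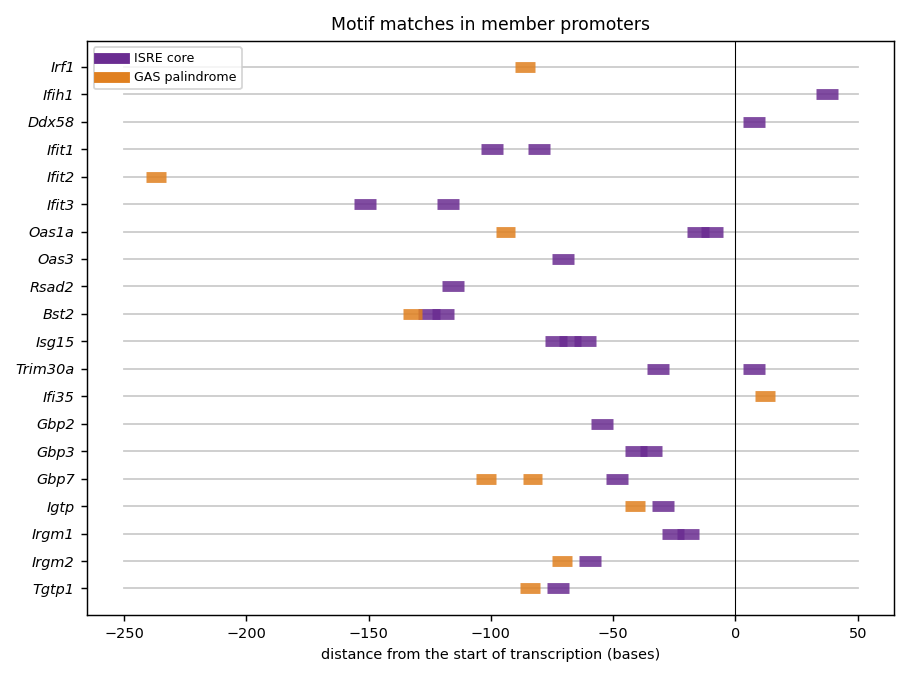
Positions of ISRE cores (purple) and GAS palindromes (orange) in the promoters of the 20 members that held at least 1 match, on an axis of bases from the start of transcription (vertical line). Most matches lie upstream of the start, and those of Ifih1, Ddx58, Ifi35 and 1 of 2 in Trim30a lie downstream of it.

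Across the 39 members, few differed between genotypes by more than the spread between replicates. Of 17643 genes tested, 10.7% were called, meaning an adjusted p under 0.05 in edgeR's quasi-likelihood test with Benjamini-Hochberg adjustment and a change above 1.5-fold in either direction. Of the 39 members, all of which were tested, none was called higher in transgenic samples, against 5.65% of all genes, and 1, *Gbp2*, was called lower, against 5.08%. At an unadjusted p under 0.05 in edgeR, 2 members passed, against 34.1% of all genes, *Gbp2* and *Oasl1*, both lower in transgenic samples, and DESeq2 called *Gbp2* alone with 5 members at an unadjusted p under 0.05. The median log2 fold change of the members was -0.09, beside 0.01 over all tested genes, with 14 members above 0 and 25 below, 12 of which turned above 0 with library size alone, a scaling that moved the median of all genes to 0.23. The median of the members was -0.87 without transgenic replicate 1 and 0.38 without transgenic replicate 2, and leaving out a sample turned the sign of 29 members. The median standard error of these log2 fold changes was 0.47 in the members and 0.20 over all tested genes, so differences of moderate size could not be resolved in most members.

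In 31 of 39 members the ranges of the genotypes overlapped, against 35.1% of all tested genes. Both transgenic samples lay below both WT samples in 7 members (31.5% of all genes), namely *Ifit2*, *Oasl1*, *Gbp2*, *Gbp3*, *Gbp7*, *Igtp* and *Iigp1*. Both lay above in 1 member, *Bst2* (33.3% of all genes). The mean difference between replicates was larger than the difference between genotypes in the other 31 members, against 35.1% of all genes.

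**Figure D2:**
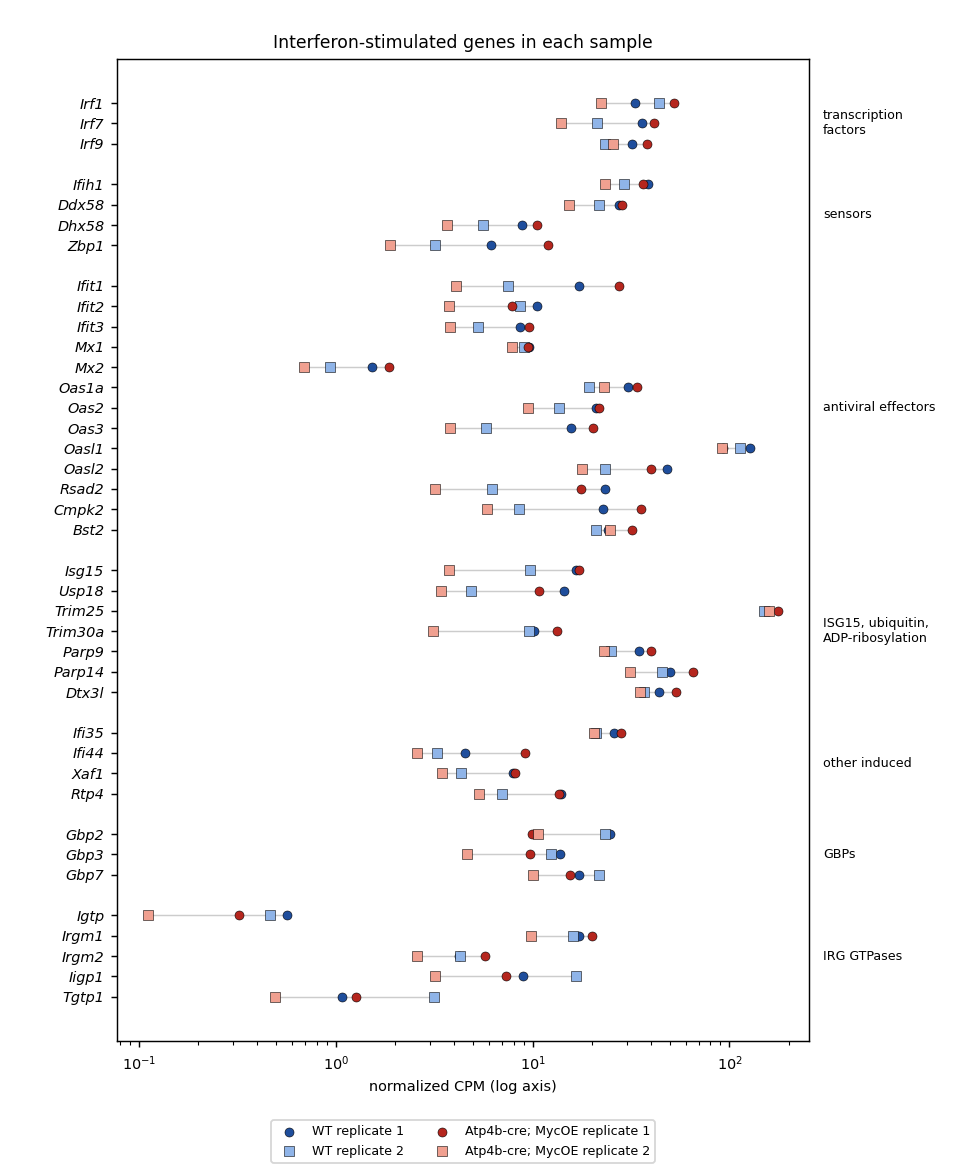
Normalized CPM (log axis) of each of the 39 members in the 4 samples, with circles for replicate 1 and squares for replicate 2, blue for WT and red for Atp4b-cre; MycOE. Transgenic replicate 2 (pale red square) is the lowest sample in 34 members, and the genotypes separate most clearly in Gbp2.

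The sample in which members were lowest was transgenic replicate 2, in 34 of 39 members against 22.0% of all tested genes. The exceptions were *Irf9*, *Oas1a*, *Bst2*, *Trim25* and *Gbp2*. Transgenic replicate 1 was the highest sample in 25 members, WT replicate 1 in 11 and WT replicate 2 in 3. Taken as the median over members of the log2 CPM minus the gene's mean over the 4 samples, the levels were 0.34 in WT replicate 1, -0.18 in WT replicate 2, 0.42 in transgenic replicate 1 and -0.71 in transgenic replicate 2. Each genotype thus held a sample with high and a sample with low levels, and the span was wider in the transgenic pair.

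Replicate 1 was higher than replicate 2 in both genotypes for 33 of 39 members, against 24.3% of all tested genes, and the reverse in both was seen in 0 members. No source used here says that the replicate numbers mark a shared litter, cage or day, and matching samples of the same number across genotypes, here and in the fit with a block, is a description. The median log2 ratio of replicate 1 to replicate 2 was 0.41 in WT and 1.17 in transgenic samples, beside 0.00 in each over all genes. Replicate 1 was at least 2-fold above replicate 2 in 6 members in WT (4.82% of all genes) and in 26 members in the transgenic pair (4.86% of all genes). The 6 members in this direction in WT were *Ifit1*, *Oas3*, *Oasl2*, *Rsad2*, *Cmpk2* and *Usp18*, and these had it in both genotypes (1.41% of all genes), while *Tgtp1* differed by more than 2-fold in the opposite direction in WT. Across the 39 members the log2 ratios of the WT pair and of the transgenic pair had a Pearson's r of 0.52 and a Spearman's rho of 0.58, and across all tested genes r was 0.0674. The members share libraries and are not independent of each other.

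**Figure D3:**
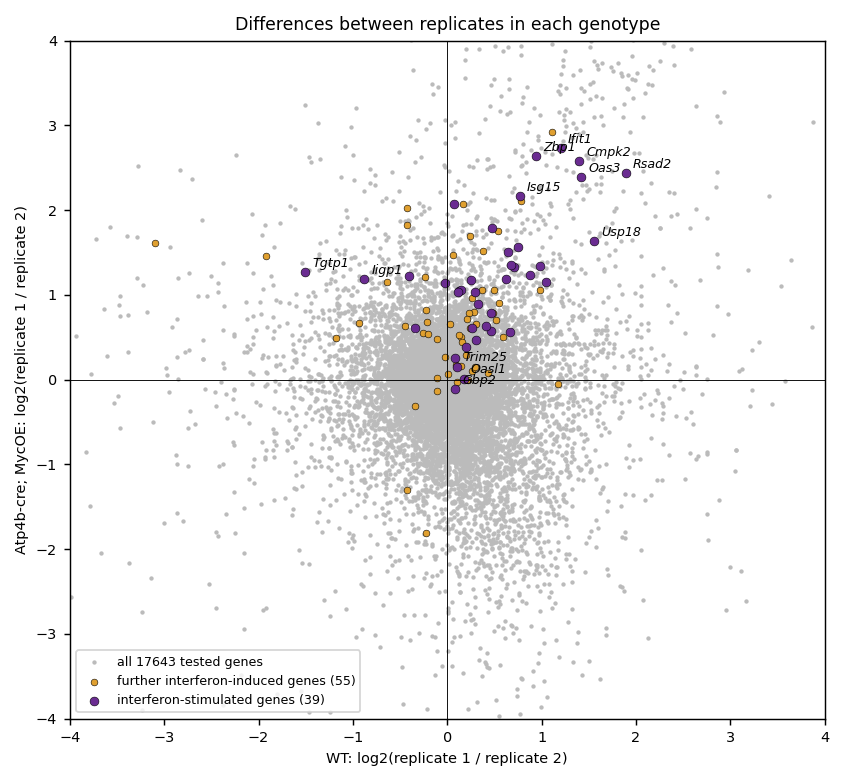
Log2 ratio of replicate 1 to replicate 2 in WT (horizontal) and in Atp4b-cre; MycOE (vertical) for all 17643 tested genes in grey, the 39 members in purple and 55 further interferon-induced genes in orange. Of the 39 members 33 lie above 0 on both axes, with Ifit1, Zbp1, Cmpk2, Rsad2 and Oas3 highest on the vertical axis, and 195 genes lie outside the axes.

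Other values that moved between the replicates were set beside this pattern. Summed squamous keratinocyte markers of the forestomach, the part of the mouse stomach lined by squamous epithelium, were 3012 and 1749 normalized CPM in WT and 1270 and 5285 in transgenic samples. They were therefore higher in WT replicate 1 than in WT replicate 2 but lower in transgenic replicate 1 than in transgenic replicate 2. Smooth muscle markers summed to 7640 and 4827 in WT and to 2479 and 5270 in transgenic samples, in the same order. Leukocyte markers summed to 279 and 296 in WT and to 160 and 132 in transgenic samples, with *Lyz2* and *Csf1r* the largest parts of the WT sums. By the median over the 17 tested leukocyte markers of the log2 CPM minus the gene's mean, the levels were 0.26 and 0.41 in WT and 0.03 and -0.64 in transgenic samples, so that transgenic replicate 2 was the lowest, as for the members. In the transgenic pair 12 of these 17 markers were higher in replicate 1, with a median log2 ratio of 0.67, and in the WT pair 7 of 17 were, with a median of -0.21. The mucous neck cell genes *Muc6* and *Tff2* were also higher in transgenic replicate 1 than in replicate 2, by log2 ratios of 1.01 and 1.30. The other 4 of the 6 tested markers of surface mucous and mucous neck cells were lower in replicate 1 in both genotypes. The median log2 ratio over the 6 was -0.59 in the transgenic pair. *Ptprc*, the pan-leukocyte surface phosphatase CD45, had 15.0 and 21.2 normalized CPM in WT and 21.9 and 13.3 in transgenic samples. The part of these cell types, and of the sex difference of the WT pair, in the levels of the members was not tested.

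Among the transcription factors of the pathway, 0 of 3 members passed the test (10.7% of all genes). *Irf7*, the factor that amplifies type I interferon production, had 35.9 and 21.3 normalized CPM in WT and 41.2 and 13.9 in transgenic samples. In each genotype replicate 1 was the higher sample, and both WT values lay between the transgenic ones. Its log2 fold change was -0.06 with a standard error (SE) of 0.59 (n = 2 per genotype). *Irf1*, a transcription factor that IFN-γ induces, had 33.1 and 43.8 in WT and 52.2 and 22.3 in transgenic samples, so that the WT order was the reverse of that of *Irf7*. *Irf9*, the DNA-binding partner of STAT2, had 32.1 and 23.3 in WT and 38.3 and 25.7 in transgenic samples. Its log2 fold change of 0.21 was within its SE of 0.27.

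Among the sensors of nucleic acid 0 of 4 passed the test (10.7% of all genes), and transgenic replicate 2 was the lowest sample in all 4. *Ifih1* and *Ddx58* encode MDA5 and RIG-I, which detect viral RNA in the cytoplasm, and *Dhx58* encodes their relative LGP2. *Ifih1* had 38.7 and 29.1 normalized CPM in WT and 36.2 and 23.3 in transgenic samples. *Ddx58* had 27.4 and 21.8 in WT and 28.4 and 15.3 in transgenic samples. For both genes transgenic replicate 2 was the lowest sample, and the genotypes overlapped. *Dhx58* had 8.85 and 5.63 in WT and 10.5 and 3.67 in transgenic samples. *Zbp1*, the sensor of Z-form nucleic acid, spread most widely, with 6.17 and 3.19 in WT and 12.0 and 1.88 in transgenic samples. Its log2 fold change of 0.56 had an SE of 0.93, and the transgenic replicates alone differed by 2.64 on the log2 scale.

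Among the 13 antiviral effectors replicate 1 was higher in both genotypes for all 13, with differences that ran from slight in *Mx1* and *Oasl1* to several-fold in *Ifit1*. Across these 13 genes the log2 ratios of the WT pair and of the transgenic pair had an r of 0.89. *Ifit1* had 17.3 and 7.46 normalized CPM in WT and 27.5 and 4.10 in transgenic samples, from 579, 208, 934 and 183 counts. The high and the low transgenic sample thus enclosed both WT samples, at a log2 ratio of 2.73 between them. The log2 fold change between genotypes was 0.35 with an SE of 0.97 and an adjusted p of 0.832 in edgeR's quasi-likelihood test. *Ifit3*, a partner of IFIT1, had 8.61 and 5.27 in WT and 9.61 and 3.81 in transgenic samples. *Ifit2* of the same cluster had 10.5 and 8.60 in WT and 7.81 and 3.78 in transgenic samples and was the IFIT gene in which the genotypes did not overlap. Its log2 fold change of -0.73 (SE 0.41) had an adjusted p of 0.285. The 3 genes lie in a cluster on chromosome 19, between positions 34550694 and 34650009 of GRCm38.

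*Rsad2* and *Cmpk2* are neighbours on chromosome 12, between positions 26442746 and 26479837, and act in succession, since CMPK2 supplies nucleotide triphosphates and viperin, the product of *Rsad2*, turns CTP into a chain terminator of viral RNA synthesis. *Rsad2* had 23.3 and 6.24 normalized CPM in WT and 17.6 and 3.20 in transgenic samples. *Cmpk2* had 22.6 and 8.57 in WT and 35.3 and 5.87 in transgenic samples. In both genes replicate 1 exceeded replicate 2 in each genotype, by log2 ratios of 1.89 and 2.44 for *Rsad2* and of 1.40 and 2.58 for *Cmpk2*. Their log2 fold changes between genotypes were -0.51 (SE 1.01) and 0.40 (SE 0.96), with opposite signs and SEs larger than the differences.

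The oligoadenylate synthetases make the second messenger that activates RNase L. *Oas3* had 15.6 and 5.81 normalized CPM in WT and 20.2 and 3.81 in transgenic samples. *Oas2* had 21.0 and 13.6 in WT and 21.8 and 9.51 in transgenic samples, again with the replicates apart and the genotypes interleaved. *Oas1a* had 30.7 and 19.3 in WT and 33.8 and 23.0 in transgenic samples, and it is uncertain because 57.6% of its 50-base windows also occur in *Oas1g*, a near-identical copy. *Oasl2* had 48.4 and 23.4 in WT and 40.0 and 17.9 in transgenic samples.

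*Oasl1*, its neighbour on chromosome 5, which encodes an OAS-like protein without synthetase activity, behaved differently. It had 127.3 and 112.8 normalized CPM in WT and 92.2 and 91.4 in transgenic samples, so that the replicates lay close together and the genotypes did not overlap. The log2 fold change was -0.39 (SE 0.09), with an unadjusted p of 0.0119 and an adjusted p of 0.0673 in edgeR's quasi-likelihood test, and it missed the threshold. With library size alone the log2 fold change was -0.16 (adjusted p of 0.268), and DESeq2 gave an adjusted p of 0.0147 with a change under the fold threshold. Per kilobase of merged exon, *Oasl1* was also the most abundant member, at 46.0 normalized CPM per kilobase in WT and 35.2 in transgenic samples, ahead of *Trim25* with 26.8 and 29.0 and of *Bst2* with 25.1 and 31.3. *Igtp* was the least abundant on this scale, at 0.255 in WT.

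*Mx1* and *Mx2*, the dynamin-like GTPases that block virus replication, are annotated by RefSeq as transcribed pseudogenes in the C57BL/6J reference. *Mx1* had 9.59 and 9.07 normalized CPM in WT and 9.43 and 7.88 in transgenic samples, and the 4 samples lay close together. *Mx2* had 1.52 and 0.932 in WT and 1.86 and 0.694 in transgenic samples, from 26 to 63 counts. *Bst2*, encoding tetherin, which holds budding virus at the cell surface, was the member in which both transgenic samples lay above both WT samples, with 24.2 and 21.0 in WT and 32.0 and 24.6 in transgenic samples. The nearest values of the genotypes differed by less than the replicates did, and the log2 fold change of 0.32 (SE 0.18) had an adjusted p of 0.284.

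Of the genes for ISG15, ubiquitin ligases and ADP-ribosylation, 0 of 7 passed the test (10.7% of all genes). Replicate 1 was higher in both genotypes for all 7. *Isg15*, the ubiquitin-like protein that is attached to other proteins, had 16.6 and 9.75 normalized CPM in WT and 17.2 and 3.78 in transgenic samples. *Usp18*, the protease that removes ISG15 and dampens IFNAR, had 14.5 and 4.87 in WT and 10.7 and 3.43 in transgenic samples. For both genes the replicate 1 samples of the genotypes lay closer to each other than to their own replicate 2. *Trim25*, a ubiquitin ligase that activates RIG-I, was far steadier, with 159.6 and 149.1 in WT and 175.9 and 158.2 in transgenic samples, and its log2 fold change was 0.11 (SE 0.10). *Trim30a*, which restrains inflammatory signalling, had 10.1 and 9.64 in WT and 13.3 and 3.13 in transgenic samples, so that the WT pair nearly coincided and lay between the transgenic values.

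*Parp9* and *Dtx3l* encode partners that form an ADP-ribosyltransferase and ubiquitin ligase complex, and they overlap on chromosome 16 next to *Parp14*. *Parp9* had 34.5 and 25.1 normalized CPM in WT and 40.0 and 23.1 in transgenic samples. *Dtx3l* had 44.0 and 36.6 in WT and 53.2 and 34.9 in transgenic samples. *Parp14* had 49.6 and 45.4 in WT and 65.0 and 31.4 in transgenic samples. In all 3 the WT values lay inside the range of the transgenic values, and the log2 fold changes were between 0.02 and 0.13. Counting by strand is not given in the sources used here, so reads in the overlap of *Parp9* and *Dtx3l*, and of *Irf7* with *Phrf1*, *Irf9* with *Rnf31* and *Igtp* with *Irgm2*, may be shared between genes.

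The 4 other induced proteins had replicate 1 above replicate 2 in both genotypes for all 4. *Ifi44* had 4.56 and 3.26 normalized CPM in WT and 9.11 and 2.60 in transgenic samples, and its log2 fold change of 0.58 had an SE of 0.66. *Xaf1*, which encodes an antagonist of the apoptosis inhibitor XIAP, had 7.99 and 4.34 in WT and 8.17 and 3.45 in transgenic samples. *Rtp4* had 13.9 and 7.03 in WT and 13.6 and 5.33 in transgenic samples. In *Xaf1* and *Rtp4*, samples of the same number lay closer to each other across genotypes than to the other replicate of their own genotype. *Ifi35*, with 26.0 and 21.0 in WT and 28.2 and 20.5 in transgenic samples, varied least of the 4.

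The guanylate-binding proteins are GTPases that coat and break open vacuoles holding pathogens. All 3 members lay lower in both transgenic samples than in both WT samples (31.5% of all genes), and 1 of 3 passed the test (10.7%). Of the 7 other GBP genes tested, in the list of further interferon-induced genes, 0 were called in edgeR (10.7% of all genes). An unadjusted p under 0.05 in edgeR's quasi-likelihood test was reached by 2 (34.1% of all genes). Without overlap 3 lay lower (*Gbp5*, *Gbp6* and *Gbp9*, against 31.5% of all genes). The genotypes overlapped in 4 (*Gbp4*, *Gbp8*, *Gbp2b* and *Gbp10*, against 35.1%), the last 2 with log2 fold changes above 0. *Gbp2* had 24.9 and 23.4 normalized CPM in WT and 9.91 and 10.7 in transgenic samples, or 24.1 ± 0.996 against 10.3 ± 0.562 (SD, n = 2). The replicates of each genotype nearly coincided and the genotypes lay far apart, unlike in most members. The log2 fold change was -1.23 (SE 0.13), with an adjusted p of 0.021 in edgeR's quasi-likelihood test with Benjamini-Hochberg adjustment over all 17643 genes. The call was lost in edgeR without WT replicate 1 (adjusted p of 0.199) and without WT replicate 2 (adjusted p of 0.232), where 0 of all genes were called, while the log2 fold change stayed between -1.28 and -1.17 over the 4 fits that leave out a sample. It was also lost with the replicate number as a block (adjusted p of 0.0612 in edgeR). *Gbp2* lies on chromosome 3 between positions 142620602 and 142638008 of GRCm38, within a cluster that also holds *Gbp3* and *Gbp7*.

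*Gbp3* had 13.7 and 12.4 normalized CPM in WT and 9.73 and 4.66 in transgenic samples, with a log2 fold change of -0.86 (SE 0.39) and an adjusted p of 0.209. *Gbp7* had 17.1 and 21.8 in WT and 15.4 and 10.1 in transgenic samples, with a log2 fold change of -0.61 (SE 0.27) and an adjusted p of 0.200. In both genes the lowest sample was again transgenic replicate 2, and transgenic replicate 1 lay between it and WT. Of the windows of *Gbp7*, 10.5% are shared with *Gm43802*.

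Some leukocyte markers, all endothelial markers and markers of several other cell types moved with *Gbp2*. Of 17 tested leukocyte markers 5 were called lower (5.08% of all genes), namely *Itgam*, *Adgre1*, *Csf1r*, *Siglech* and *Lyz2*, and 1 was called higher (5.65% of all genes), *Cd14*, while 11 were not called, with summed levels of 279 to 296 normalized CPM in WT and 132 to 160 in transgenic samples. No leukocyte marker was at 0 in both samples of a genotype. All 6 endothelial markers were called lower, against the same 5.08%, with summed levels of 361 to 381 in WT and 138 to 145 in transgenic samples. Also called lower were 8 of 8 parietal, 3 of 4 chief, 4 of 6 mucous and 5 of 6 pancreatic acinar markers. The 11 listed acinar markers summed to 10201 and 8941 normalized CPM in WT and to 146 and 168 in transgenic samples. Of the smooth muscle and forestomach markers 0 were called. *Ptprc* had a log2 fold change of -0.04 and an adjusted p of 0.944. The part of these cells in the level of *Gbp2* was not tested.

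The immunity-related GTPases, which act on the same vacuoles, had log2 fold changes below 0 in 5 of 5 members with TMM scaling. Of these *Irgm1* and *Irgm2* turned to 0.06 and 0.19 with library size alone. Of the 5 members 0 passed the test, against 10.7% of all genes. Their adjusted p-values ranged from 0.179 to 0.961. *Iigp1* had 8.94 and 16.5 normalized CPM in WT and 7.34 and 3.20 in transgenic samples, with a log2 fold change of -1.27 (SE 0.53). *Tgtp1* had 1.07 and 3.15 in WT and 1.27 and 0.493 in transgenic samples. These were the 2 members in which WT replicate 2 exceeded WT replicate 1 by most. Their log2 ratios of replicate 1 to replicate 2 in WT were -0.88 and -1.51. In the transgenic pair they kept the order of 38 of the 39 members, with replicate 1 higher. *Tgtp1* is uncertain, since 79.4% of its windows also occur in *Tgtp2*, which had 1.85 and 2.90 in WT and 2.21 and 0.963 in transgenic samples.

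*Igtp* had 0.566 and 0.466 normalized CPM in WT and 0.324 and 0.112 in transgenic samples, from 19, 13, 11 and 5 counts. The genotypes did not overlap, but the counts were close to the limit of what these libraries resolve. *Irgm1*, a regulator of the other GTPases of the family, had 17.3 and 16.0 in WT and 19.99 and 9.76 in transgenic samples. *Irgm2* had 4.23 and 4.30 in WT and 5.75 and 2.57 in transgenic samples. The WT samples nearly coincided in these 2 genes and lay between the transgenic ones. Set beside the promoters, the 17 members with an ISRE core had a median log2 fold change of -0.19 and a median log2 ratio of 1.14 between the transgenic replicates, and the 12 without had 0.00 and 1.10.

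**Figure D4:**
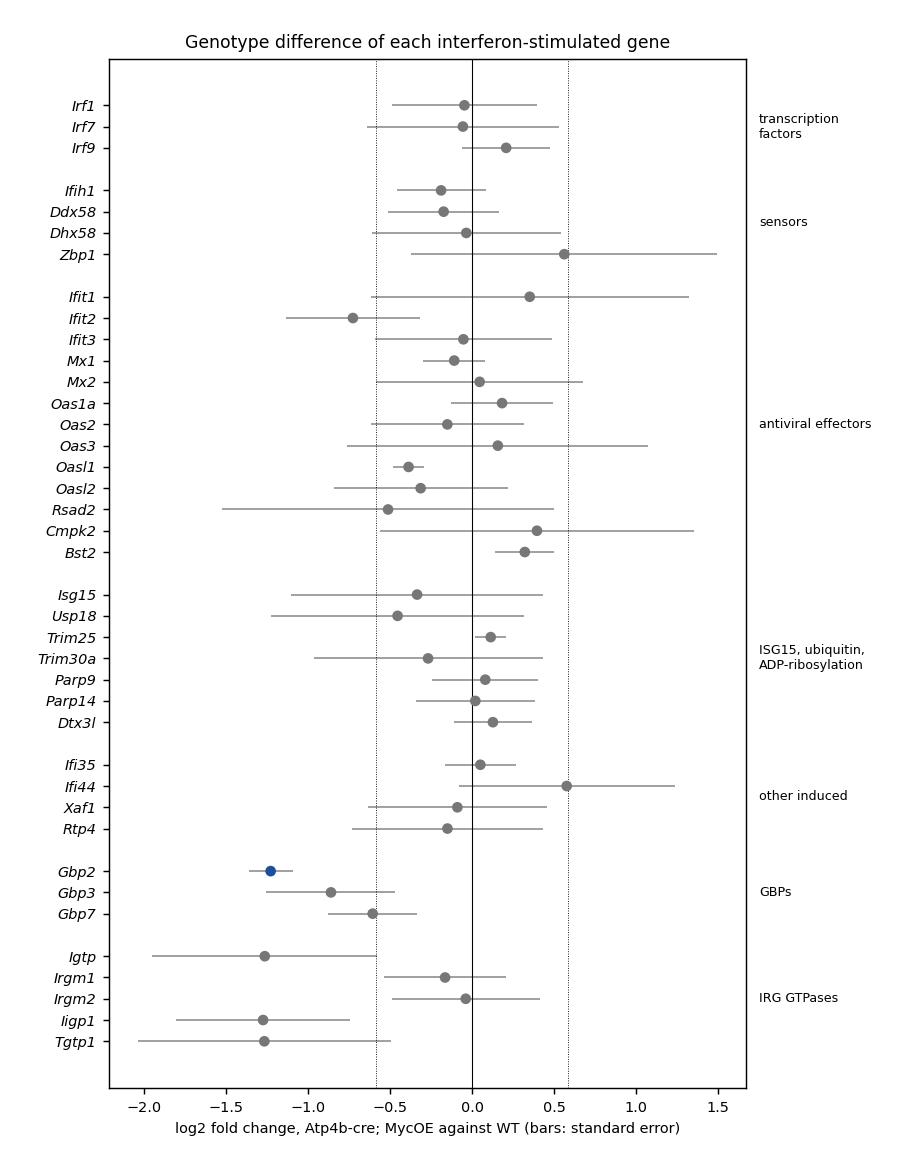
Log2 fold change of Atp4b-cre; MycOE against WT for each of the 39 members, with bars for the standard error and dotted lines at the 1.5-fold threshold. Gbp2 (blue) is the member that passed the test, and the 3 GBP members and the 5 IRG GTPase members lie below 0 with TMM scaling, Irgm1 and Irgm2 turning above 0 with library size alone.

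The genes that make interferon were at or near the floor. Of 21 ligand genes 18 had 0 counts in all libraries, among them *Ifnb1* and *Ifng*, which allows up to 3 counts per library or 0.0724 to 0.0991 CPM of the library total, for counting error only. Another 2 had 1 count in 1 library. *Ifne*, encoding the interferon of female reproductive epithelium, had 6 and 3 counts in the WT libraries and 8 and 31 counts in the transgenic ones, and it did not pass the filter on low counts. A transient or local source of interferon is not addressed by these values.

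Of the 6 receptor genes all were tested and 0 were called (10.7% of all genes). An unadjusted p under 0.05 in edgeR's quasi-likelihood test was reached by 2 (34.1% of all genes). Both were chains of the type II receptor and differed in opposite directions. *Ifnar1*, a chain of the type I receptor, had 51.3 and 56.0 normalized CPM in WT and 52.1 and 49.5 in transgenic samples. *Ifnlr1*, the chain specific to type III interferon, had 15.8 and 20.9 in WT and 17.9 and 19.2 in transgenic samples. *Ifngr1*, a chain of the type II receptor, had 146.2 and 160.3 in WT and 107.2 and 114.7 in transgenic samples, without overlap. Its log2 fold change of -0.47 had an adjusted p of 0.047 in edgeR's quasi-likelihood test and stayed under the fold threshold. *Ifngr2*, its partner chain, had 74.0 and 76.3 in WT and 92.05 and 86.2 in transgenic samples, also without overlap, with a log2 fold change of 0.25 and an adjusted p of 0.114 in the same test.

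Of 13 signalling genes 1 was called, higher in transgenic samples, a share near the 5.65% of all genes. *Stat2*, which type I interferon activates, had 43.7 and 37.0 normalized CPM in WT and 42.8 and 27.9 in transgenic samples, and transgenic replicate 2 was the lowest sample, as in most members. *Ptpn2*, a phosphatase that dampens interferon receptor signalling, was the gene called, with 22.4 and 22.2 in WT and 42.2 and 33.4 in transgenic samples, a log2 fold change of 0.76 and an adjusted p of 0.0476 in edgeR's quasi-likelihood test. Among 18 genes of nucleic acid sensing and interferon induction, 1 was called higher (5.65% of all genes), *Aim2*, which encodes the DNA sensor of an inflammasome. *Aim2* had 1.46 and 1.18 in WT and 10.3 and 7.95 in transgenic samples, with a log2 fold change of 2.78 and an adjusted p of 0.0201.

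A further 57 interferon-induced genes were read beside the members, and 55 of them were tested. In this list 2 were called higher (5.65% of all genes), 2 were called lower (5.08% of all genes), and the median log2 fold change was -0.13. *Ifitm1* and *Ifitm2*, which encode membrane proteins that hinder virus entry, were higher, with 5.78 and 6.24 against 21.3 and 23.4 normalized CPM for *Ifitm1* and 63.3 and 59.0 against 110.5 and 112.7 for *Ifitm2*. The replicates of both genes lay close together, and the log2 fold changes of 1.90 and 0.87 had adjusted p-values of 0.0168 and 0.0188 in edgeR's quasi-likelihood test. All 4 calls of this list were lost without either WT sample, and with the replicate number as a block 0 genes were called higher and 1 was called lower. *Ifi27* and *Ifi27l2a*, of a family of small mitochondrial proteins, were lower. *Ifi27* had 98.2 and 81.6 in WT and 34.7 and 32.2 in transgenic samples, with a log2 fold change of -1.43 and an adjusted p of 0.018. *Ifi27l2a* had 17.6 and 22.2 in WT and 5.75 and 7.14 in transgenic samples, with a log2 fold change of -1.62 and an adjusted p of 0.0267.

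In this list replicate 1 was higher in both genotypes for 31 of 55 genes (24.3% of all genes) and the reverse held for 4, and transgenic replicate 2 was the lowest sample for 36 (22.0% of all genes). Across the 55 genes the log2 ratios of the WT pair and of the transgenic pair had an r of 0.0047 and a rho of 0.13, against 0.52 and 0.58 in the members. Relatives and copies of members varied in their order of samples. *Ifit1bl1*, next to the Ifit genes, had 24.6 and 11.4 normalized CPM in WT and 56.4 and 7.37 in transgenic samples. *Trim30d*, a relative of *Trim30a*, had 10.7 and 6.24 in WT and 10.6 and 2.42 in transgenic samples. *Ifit3b*, which shares 51.2% of the windows of *Ifit3*, had 3.37 and 2.33 in WT and 3.45 and 2.10 in transgenic samples. These 3 had replicate 1 above replicate 2 in both genotypes and transgenic replicate 2 lowest, whereas *Tgtp2* was highest in WT replicate 2 and *Oas1g* was lowest there, with 9.95 and 7.10 in WT and 13.1 and 7.59 in transgenic samples.

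**Figure D5:**
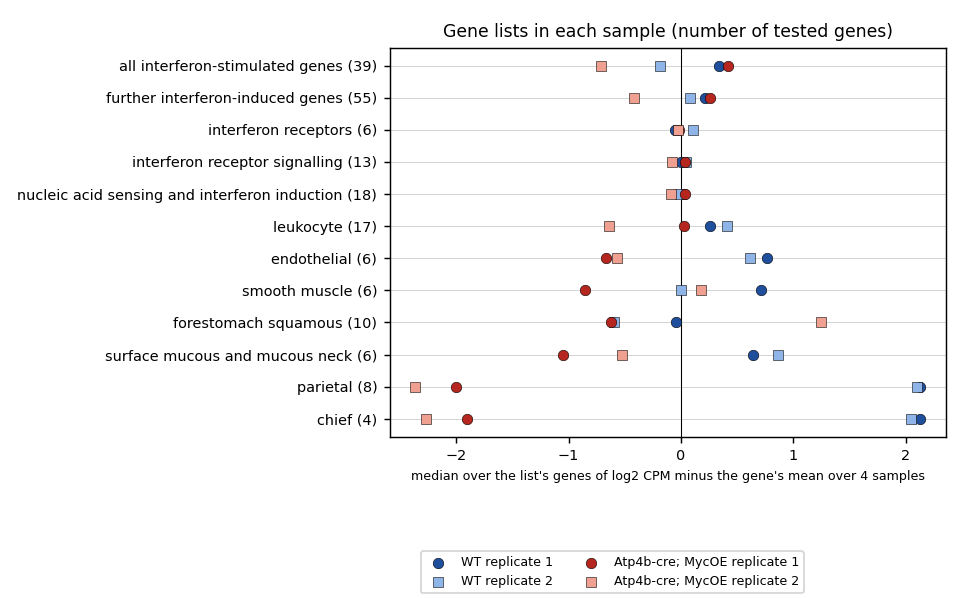
Median over the genes of each list of the log2 CPM minus the gene's mean over the 4 samples, with the number of tested genes in brackets, circles for replicate 1 and squares for replicate 2, blue for WT and red for Atp4b-cre; MycOE. The interferon-stimulated genes lie at 0.34 and -0.18 in WT and at 0.42 and -0.71 in transgenic samples, while parietal and chief cell markers separate the genotypes.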

How the data were processed

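Gastric mouse RNA was sequenced in 2 WT and 2 *Atp4b-cre; MycOE* (MYC-KI) samples. The design text of the series speaks of triplicates, and any other sample was not analysed here. The authors deposited raw, unnormalized read counts per gene symbol. The submitters' processing notes name HISAT2 and mm10. The counting tool, the annotation and the use of strand are not given in the sources used here. Members and lists were chosen with earlier results of these data known.

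The transgenic columns were re-assigned before any test, keeping their row order, to the names in character-code order. The genotype comparison used the quasi-likelihood test of edgeR (version 4.0.16, under R 4.3.3) with filterByExpr, TMM scaling, no covariates and Benjamini-Hochberg adjustment over 17643 genes, which were called at an adjusted p under 0.05 and a change above 1.5-fold. Normalized CPM are TMM-scaled counts per 1000000, and log2 ratios between replicates used a prior count of 2. The common dispersion had a square root of 0.295. With 2 samples per genotype an exact permutation test cannot go below a two-sided p of 0.333 and was not used. Every member was named, and from other lists at most 3 called rises and 3 falls plus fixed pathway genes, except that all 5 leukocyte markers called lower were named. *Xist*, *Ddx3y*, *Ifne* *Ifngr2*, the mucous neck genes, other GBP genes and the copies of members were named, after their values were seen, beside results that they touch. The values of some listed genes are not reported here. Gene positions and exon lengths came from GENCODE M21 and promoters from RefSeq, both on GRCm38, the assembly of mm10.

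Alternatives were DESeq2 1.42.0, its size factors in edgeR, library size alone, other filters and thresholds, the replicate number as a block, the table as deposited and leaving out each sample. Counts were simulated for this comparison, with 200 genes that differed by 2 on the log2 scale. Of these, edgeR recovered 161 (80.5%), among 17694 genes tested with 7 false calls, and DESeq2 163 (81.5%) among 17585 with 16. Every simulated gene had the common dispersion, and the changed genes were drawn above a limit on counts. These shares therefore do not carry over to the members, whose median standard error was 0.47, against 0.20 over all tested genes.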

Additional observations from a re-analysis of the deposited data

How the results depend on the processing

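*Gbp2* was called under DESeq2 (adjusted p = 1.13e-09), its size factors, library size alone (0.0182), no filter on low counts (0.00402) and a minimum of 10 counts in every sample (0.019), which left *Igtp* untested. When a sample was left out its log2 fold change in edgeR ranged from -1.28 to -1.17, with adjusted p-values of 0.199 and 0.232 without either WT sample. Those fits leave 1 sample in an arm, assumed to vary like the others. The number of members called lower was 0 to 3 when a sample was left out, with 3 (*Gbp2*, *Gbp3* and *Trim30a*) without MYC-KI replicate 1, and 0 with the replicate number as a block, where the log2 fold change of *Gbp2* was -1.23 with an adjusted p of 0.0612. The replicate numbers are not said to mark a litter or day, and the correlation of the replicates' deviations between genotypes was 0.0674 over all genes and 0.52 over the 39 members. A shared litter, batch or day was not tested. In the table as deposited, 12 members were called higher and 18 lower. All genes called numbered 3234 under DESeq2, 3011 with library size alone, 1113 above an absolute log2 fold change of 1, 114 with the block, 18580 in the table as deposited and 0 to 2470 when a sample was left out. Of the further interferon-induced genes 4 were called higher with library size alone, 1 above an absolute log2 fold change of 1, 0 with the block and 0 to 2 without a sample. Called lower were 6 under DESeq2, 4 without a filter, 1 with the block and 0 to 8 without a sample. The cause of these shifts was not tested.

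The median log2 fold change of the members was -0.87 to 0.38 when a sample was left out and 0.13 with library size alone, which moved the median of all genes from 0.01 to 0.23 and the share of higher calls from 52.6% to 75.5%, while the block gave 23.7%. With library size alone the sign turned, none past the threshold, in *Irf1* (0.18), *Irf7* (0.17), *Ifih1* (0.034), *Ddx58* (0.0498), *Dhx58* (0.19), *Ifit3* (0.17), *Mx1* (0.11), *Oas2* (0.072), *Xaf1* (0.13), *Rtp4* (0.072), *Irgm1* (0.059) and *Irgm2* (0.19), and with the block in *Ifit1* (-0.076), *Mx2* (-0.054), *Oas3* (-0.11) and *Parp14* (-0.069). Leaving out a sample turned the sign of 29 members, with ranges of log2 fold change of -1.41 to 1.26 (*Cmpk2*), -0.69 to 0.21 (*Ddx58*), -0.98 to 0.53 (*Dhx58*), -0.21 to 0.40 (*Dtx3l*), -0.20 to 0.26 (*Ifi35*), -0.59 to 1.22 (*Ifi44*), -0.54 to 0.094 (*Ifih1*), -1.59 to 1.15 (*Ifit1*), -0.87 to 0.47 (*Ifit3*), -0.78 to 0.44 (*Irf1*), -1.04 to 0.53 (*Irf7*), -0.11 to 0.47 (*Irf9*), -0.77 to 0.26 (*Irgm1*), -0.73 to 0.43 (*Irgm2*), -1.80 to 0.38 (*Isg15*), -0.24 to 0.016 (*Mx1*), -0.82 to 0.59 (*Mx2*), -0.12 to 0.56 (*Oas1a*), -0.86 to 0.33 (*Oas2*), -1.49 to 1.04 (*Oas3*), -1.01 to 0.30 (*Oasl2*), -0.60 to 0.45 (*Parp14*), -0.37 to 0.42 (*Parp9*), -2.21 to 0.73 (*Rsad2*), -0.98 to 0.43 (*Rtp4*), -1.66 to 0.43 (*Trim30a*), -1.50 to 0.54 (*Usp18*), -0.84 to 0.42 (*Xaf1*) and -1.31 to 1.35 (*Zbp1*). The other alternatives run on the re-sorted counts kept the direction of each member they tested.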
